A study of Mus musculus with 73 samples.

Results

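The *Klf2* locus of the mouse contributed 4 of the 59 enhancer fragments of this reporter study, named Klf2_E046, Klf2_E057, Klf2_E058 and Klf2_E061. All combinations in which one of them was paired with a control fragment (EC combinations, regardless of position) or with another of the 4 (EE combinations) were taken, which gave 2317 of the 110180 measured combinations, 2087 EC and 230 EE. The study was a massively parallel reporter assay (MPRA), in which pairs of DNA fragments were cloned downstream of a barcoded GFP reporter driven by 1 of 8 promoters, and the plasmids were transfected into E14tg2a cells, a line of mouse embryonic stem cells (mESCs), in 2i+LIF medium, which holds such cells in the naive state. Promoters of *Klf2*, *Sox2*, *Nanog*, *Otx2*, *Lefty1*, *Fgf5* and *Tbx3*, all developmental genes, and of the housekeeping gene *Ap1m1* each had their own library. Every library was transfected in 3 biological replicates and collected after 24 h, so that each of the 8 groups consists of 3 replicates. The cDNA of each replicate and the plasmid DNA of each library are listed as samples of 2 runs. For each combination and replicate 1 activity was deposited, cDNA set against the plasmid DNA of the same library. All groups share cell line, medium and reporter, and differ in the promoter. Each fragment could stand in position 1 or 2 and in plus or minus orientation. The plasmids are episomal, so the distances and chromatin of the locus are not part of the assay.

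*Klf2* encodes a zinc finger transcription factor of the Krüppel-like family which, together with its relatives Klf4 and Klf5, belongs to the network that maintains naive pluripotency in mESCs. Enhancers are short DNA elements that bind transcription factors and raise the activity of a promoter. Several of them often lie around a gene of this kind, mostly at sites where the chromatin is open to DNase I, and the fragments tested here were defined around such sites in mESCs. *Ap1m1* encodes a subunit of an adaptor complex for clathrin-coated vesicles and is the neighbour of *Klf2* on the chromosome.

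In mm10, all 4 fragments lie on chromosome 8 and are listed with 450 bp each, and none overlaps a gene of the RefSeq annotation. Klf2_E046 spans chr8:72271222-72271671, 13835 bp beyond the end of *Ap1m1* and 47390 bp before the start of *Klf2*, and the gene closest to it is the long non-coding RNA gene *Gm51537*, 8013 bp away. Klf2_E057 at chr8:72311071-72311520 and Klf2_E058 at chr8:72316077-72316526 also lie before *Klf2*, at 7541 and 2535 bp. Klf2_E061 at chr8:72333998-72334447 lies 12343 bp beyond the end of *Klf2*, closer to *Eps15l1* (6542 bp), a gene of endocytosis. Klf2_E057 and Klf2_E058 are thus the closest neighbours, with 4556 bp between them, while 39399 bp separate Klf2_E046 from Klf2_E057. The *Klf2* promoter fragment spans chr8:72318658-72319107 and that of *Ap1m1* chr8:72239767-72240216.

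The primer pairs that were designed to amplify the 4 fragments from genomic DNA fix which DNA was tested and are given 5′ to 3′, forward before reverse.
Klf2_E046 forward: tctggttaaatgtgctaatgccttcag
Klf2_E046 reverse: tagagagatgcatcggtagataagctc
Klf2_E057 forward: ctctccaaatgtgacatctctcctcag
Klf2_E057 reverse: tttccagcttcagtcctgccc
Klf2_E058 forward: cagggccataggttcagacaaag
Klf2_E058 reverse: aaggatgtttcaaactaagcctgacag
Klf2_E061 forward: atgggaagctttgtgcatagtataagc
Klf2_E061 reverse: ctgtctttgtcatgtcaactgcactag
The fragments themselves were not searched for motifs, as no genome was used here. For the promoter of the locus, the 250 bases that precede the *Klf2* gene, chr8:72318812-72319061 on the plus strand of GRCm38.p6 (RefSeq), are shown because they form most of the promoter fragment next to which all 4 enhancers were measured. Capitals mark GGGCGG, the core of a GC box, a motif picked after the sequence was read.
Klf2 promoter: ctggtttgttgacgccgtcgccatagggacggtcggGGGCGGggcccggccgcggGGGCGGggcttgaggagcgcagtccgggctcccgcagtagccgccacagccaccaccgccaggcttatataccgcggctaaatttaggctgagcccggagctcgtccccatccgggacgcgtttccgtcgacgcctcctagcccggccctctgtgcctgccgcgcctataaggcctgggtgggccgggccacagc
GGGCGG, searched on both strands, occurs at 2 places in this window, and 32.7% of 32851 RefSeq promoter windows hold it. ATGCAAA (POU octamer core), CATTGT (SOX), GGGNGTGG (KLF), AAGGTCA (ESRRB and NR5A2), TTCCNGGAA (STAT3), ATCAAAG (TCF7L1), CCGGAAG (ETS) and TGANTCA (AP-1) did not occur there on either strand, and between 0.913% (TTCCNGGAA) and 15.9% (GGGNGTGG) of all windows hold one of them. The 20 control fragments comprised 15 shuffled and 5 random sequences. Of the shuffled ones, 3 are named after E46, that is Klf2_E046, whose own base composition was not read. These 3 share the same base composition, each with 450 bases and 55.3% G and C once the common ends of the controls are removed. The first 150 bases of one of these, E46-shuffled1, show what the partner of an EC combination looks like.
E46-shuffled1: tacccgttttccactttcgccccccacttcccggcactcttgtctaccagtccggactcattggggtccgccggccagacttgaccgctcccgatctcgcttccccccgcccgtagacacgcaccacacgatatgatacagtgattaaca

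Activity was the cDNA to plasmid DNA ratio of a combination, averaged by the authors over at least 5 barcodes. The baseline of a promoter was the median activity over its control-control (CC) combinations, and the boost index of a fragment the log2 of its median activity over EC combinations divided by that baseline. Mean baselines over the replicates rose from 0.0891 with *Lefty1* over 0.119 (*Tbx3*), 0.170 (*Sox2*), 0.236 (*Fgf5*), 0.334 (*Nanog*), 0.400 (*Klf2*) and 0.423 (*Otx2*) to 0.587 with *Ap1m1*. They rest on 219 to 477 CC combinations, except with *Fgf5*, where only 23 were above 0. Combinations at 0 in a replicate were left out, which can raise a median but not lower it. The *Fgf5* baseline, its place in this order and the boost indices and expectations built on it are therefore uncertain. Counts were normalised to the total of each sample, so baselines and activities of different libraries are not on 1 absolute scale. The *Fgf5* library was also the thinnest for the locus, with 73 combinations against 252 to 374 elsewhere, and held all 5 of the EC combinations that were at 0 in a replicate and had no log2 value. As the table gives no numbers of barcodes or reads, depth is unknown for all activities. CC combinations with 1 of the 3 controls named as shuffled from Klf2_E046 had mean boost indices of 0.06 to 0.26 over the 8 libraries. They are among the CC combinations that set the baseline, for instance 187 of 477 with *Klf2*, so values near 0 are partly built in.

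The fragments of the locus raised the activity of nearly every promoter over the controls. Of 31 fragment-promoter pairs measured, 30 were above the CC combinations of their library in a two-sided exact rank-sum test over combinations at a 1% false discovery rate (FDR), where the share over all pairs of the series was 87.6%. The exception was Klf2_E046 with *Fgf5*, a single combination, while Klf2_E046 was not measured with *Sox2*. Combinations of 1 fragment share its sequence and, in part, their control partners, so they are not independent of each other.

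Klf2_E058, the fragment nearest to the *Klf2* promoter, was the strongest of the 4 with 7 of the 8 promoters. Beside *Lefty1*, the gene of a secreted inhibitor of Nodal signalling, its boost index was 4.65, 4.79 and 4.84 in the 3 replicates (4.76 ± 0.10, mean ± SD, n = 3), 27.1-fold over the baseline. Next to the *Sox2* promoter, whose gene encodes a core factor of pluripotency, it was 4.70, 4.46 and 4.50 (23.5-fold), the highest of the 56 fragments measured there. *Tbx3*, the gene of a T-box factor of naive cells, gave 4.63, 4.47 and 3.90, or 20.2-fold. These values are far above the median fragment of the same libraries, which had 1.47, 1.54 and 1.41. *Fgf5*, a growth factor gene that rises as cells leave the naive state, gave 4.43, 3.69 and 3.12 from 9 combinations (13.4-fold). The boost index next to its own promoter *Klf2* was 1.85, 1.98 and 1.78, with *Otx2*, the gene of a homeobox factor of the formative state, 1.77, 1.79 and 2.15, and with the pluripotency gene *Nanog* 1.98, 2.42 and 2.09. All 3 lay within 3.66 to 4.49-fold of the baseline and ranked 2 or 3 among 57 or 58 fragments. *Ap1m1* responded least, with 0.57, 0.78 and 0.52 (1.54-fold, rank 19 of 57). Over all promoters 890 of the 911 EC combinations of Klf2_E058 were above the CC median of their library, and 595 above each single CC combination. The second count turns on the highest CC combination of each library. It was 3 of 144 with *Klf2* and 5 of 143 with *Ap1m1*, but 108 of 128 with *Otx2* and 117 of 118 with *Sox2*. Such counts are given without a share over all fragments.

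Klf2_E046, the most distant fragment, came second at the locus, but rests on only 55 EC combinations, 23 of them with *Klf2*. Its boost index was 1.44, 1.39 and 1.46 with *Klf2* and 1.26, 1.54 and 1.55 with *Nanog* (10 combinations). From 5 to 7 combinations each, *Lefty1* gave 2.75, 2.92 and 3.33, *Tbx3* 2.14, 2.57 and 1.95 and *Otx2* 0.87, 1.07 and 1.20. The replicates of each library stood close together beside its distance to the baseline. With *Ap1m1* it was 1.22, 1.15 and 1.04, the highest of 57 fragments there, although from 4 combinations, all in position 2. The single combination with *Fgf5* had -0.94, -0.13 and -0.13, below the baseline in each replicate. The 3 controls named as shuffled from Klf2_E046 had at most 0.26, as given above, but they help to set the baseline and are no independent control.

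Klf2_E057 was a moderate fragment with 509 EC combinations. Its boost index was highest with *Sox2* at 2.81, 2.23 and 2.48, followed by *Lefty1* at 2.09, 2.01 and 2.17 and *Tbx3* at 2.12, 1.92 and 1.32. With *Fgf5* the replicates spread over 1 log2 unit, at 1.87, 0.82 and 1.35. *Otx2*, *Nanog* and *Klf2* formed a group of close means, 0.79 ± 0.07, 0.75 ± 0.11 and 0.73 ± 0.13 (SD, n = 3), with single replicates between 0.58 and 0.85. These sit near the medians of all fragments, 0.70, 0.81 and 0.73. *Ap1m1* again gave the smallest value, 0.31, 0.21 and 0.36, at rank 41 of 57. Of its EC combinations 471 were above the CC median and 101 above every CC combination, the latter from 0 of 78 with *Klf2* to 46 of 51 with *Sox2*.

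Klf2_E061, the only fragment beyond the end of the gene, behaved like a moderate fragment too, over 607 EC combinations. Its boost index was 2.14, 2.02 and 2.08 with *Sox2*, 1.80, 1.60 and 1.61 with *Lefty1* and 1.88, 1.71 and 1.34 with *Tbx3*. Mean values of 0.94 ± 0.02, 0.86 ± 0.30, 0.81 ± 0.14 and 0.73 ± 0.08 (SD, n = 3) followed for *Nanog*, *Fgf5*, *Otx2* and *Klf2*, and 0.42, 0.35 and 0.43 were the replicates with *Ap1m1*. Apart from *Fgf5*, its SD was at most 0.27, and it ranked between 20 and 34 in every library. Single combinations spread much more than replicates of the median, from -0.64 to 3.81 with *Lefty1*.

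The order of the fragments was tested over the replicates with limma, on the difference of 2 boost indices in each replicate, with p-values adjusted over all such pairs of all loci. Of the 45 differences within the locus 40 were called at 5% FDR (background 80.8%). Klf2_E058 was above Klf2_E057 and Klf2_E061 with all 8 promoters, and above Klf2_E046 with 6 of 7. The *Ap1m1* promoter turned that order, with Klf2_E046 above Klf2_E058 by 0.51 ± 0.06 (SE, limma, adjusted p = 2.2e-08). Klf2_E046 rests there on 4 combinations, all in position 2, with a mean of 1.13. Klf2_E058 was measured in both positions, at 0.42 in position 1 and 0.74 in position 2, so part of the 0.51 may come from position. Klf2_E046 was above Klf2_E057 and Klf2_E061 with 6 of 7 promoters each, by medians of 0.70 and 0.57 over the 7, and below them only with *Fgf5*. Between Klf2_E057 and Klf2_E061 no difference was called with 5 promoters, among them *Klf2*, where it was 0.00 ± 0.07 (SE) and the 2 are neighbours in rank, at 30 and 31 of 58. Klf2_E057 was higher with *Lefty1* (0.42 ± 0.10) and *Sox2* (0.43 ± 0.14), and Klf2_E061 with *Nanog* (-0.19 ± 0.08). The replicates are transfections of the same plasmid libraries, so such a test covers the spread between cultures and not that between plasmids that hold the same fragments.

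Each of the 4 fragments differed between promoters in a limma F test over the replicates of all 8 libraries, or of 7 for Klf2_E046 (4 of 4 at 5% FDR, background 98.3%), with adjusted p of 5.9e-13 for Klf2_E058, 3.2e-10 for Klf2_E046, 1.0e-09 for Klf2_E061 and 8.8e-09 for Klf2_E057. Set against the *Klf2* promoter, 13 of 27 contrasts were higher (background 38.9%) and 3 lower (background 9.92%). *Lefty1* and *Tbx3* were higher for all 4 fragments and *Sox2* for all 3 measured, the differences of Klf2_E058 being 2.89 ± 0.23 (SE) with *Lefty1*, 2.46 ± 0.23 with *Tbx3* and 2.68 ± 0.23 with *Sox2*. Those of Klf2_E061 were 0.94 ± 0.14, 0.92 ± 0.14 and 1.35 ± 0.14 in the same order. These 3 promoters have the lowest of the baselines given above, where that of *Fgf5* is uncertain, and boost indices are ratios to the baseline. *Nanog* and *Otx2* gave no called contrast for any fragment, with differences between -0.38 and 0.30. *Ap1m1* was lower for Klf2_E058 (-1.25 ± 0.23, limma, adjusted p = 9.5e-05) and Klf2_E061 (-0.33 ± 0.14, limma, adjusted p = 0.049). For Klf2_E046 and Klf2_E057 the values against *Ap1m1* were -0.30 ± 0.20 and -0.44 ± 0.21, which did not pass. *Fgf5* was higher for Klf2_E058 and Klf2_E057, lower for the single combination of Klf2_E046, and without a call for Klf2_E061. The own promoter of the locus was therefore not the one that these fragments raised most, in terms of the ratio to the baseline. Before division by the baseline, the median activity of Klf2_E058 was 1.57, 1.47 and 1.34 with *Klf2* and 4.36, 3.82 and 3.83 with *Sox2*. Activity is relative to the total counts of its own library, so these values do not compare absolute output between promoters.

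The position on the plasmid mattered for part of the fragments. Of 29 position differences (median log2 activity in position 2 minus position 1, limma), 5 were higher in position 2 (background 24.5%) and 14 in position 1 (background 26.1%). Klf2_E061 was higher in position 1 with all 8 promoters. Its boost index beside *Sox2* was 2.45, 2.18 and 2.37 in position 1 and 1.84, 1.49 and 1.73 in position 2, without overlap, a difference of -0.65 ± 0.06 (SE, limma, adjusted p = 4.5e-05). *Lefty1* gave 2.07, 1.80 and 1.98 and 1.49, 1.32 and 1.46. The smallest difference was that with *Ap1m1*, -0.13 ± 0.04, and it turned to 0.18 when only combinations with the fragment in plus orientation were used. Klf2_E057 was higher in position 1 with 6 promoters, for instance *Nanog*, with 1.16, 1.00 and 1.13 against 0.62, 0.69 and 0.40. Its combinations in position 1 were nearly all in plus orientation, however (166 plus and 17 minus), whereas those in position 2 were balanced (164 and 162). Klf2_E046 was higher in position 2 with 4 of 5 promoters, up to 1.04 ± 0.19 with *Tbx3*. Position 1 is a single combination for 3 of these 4 calls, with *Tbx3*, *Otx2* and *Lefty1*, and 7 combinations with *Klf2*. Klf2_E058 showed the smallest differences, between -0.13 and 0.09 with 6 promoters, a larger one with *Ap1m1* (0.32 ± 0.05, called) and 0.63 ± 0.30 with *Fgf5*, which did not pass.

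Sets of combinations that had the same control partner and the same orientations in both positions gave a like picture for Klf2_E061. It was more active in position 1 in 153 of 206 such sets (74.3%), with a median difference of -0.23. The figures were 67 of 111 (60.4%, median -0.12) for Klf2_E057 and 164 of 364 (45.1%, median 0.07) for Klf2_E058. Klf2_E046 had 1 such set, with *Klf2*, and there position 1 was higher (-1.20), opposite to its median over all combinations. With such sets alone 1 difference was called higher in position 2 and 8 in position 1, with plus orientations alone 2 and 8, and with at least 10 EC combinations on each side 1 was higher in position 2. Without replicate 3 the count in favour of position 2 was 3, and without replicate 1 that in favour of position 1 was 9. The position difference varied between promoters (limma F test, 5% FDR) for Klf2_E061 (adjusted p = 1.2e-05), Klf2_E057 (adjusted p = 0.0042) and Klf2_E058 (adjusted p = 0.029) but was not called for Klf2_E046 (adjusted p = 0.082), against a background of 40.4%. Without replicates 1, 2 and 3 in turn 1, 2 and 1 of the 4 were called, Klf2_E061 each time. The median position difference over all fragments of the series also varied by library, from -0.18 with *Sox2* to 0.15 with *Ap1m1*. Whether the fragments of the locus vary beyond these shifts was not tested.

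Orientation mostly favoured plus. Of 52 strand differences (log2 of plus over minus, per promoter and position, limma), 22 were higher in plus orientation (background 17.5%) and 1 in minus (background 17.2%). Leaving out 1 replicate took many of these calls away, with 9 in favour of plus without replicate 1, 0 without replicate 2 and 11 without replicate 3, and 0, 0 and 2 in favour of minus (such a fit has few degrees of freedom). Called or not, 41 of the 52 differences were above 0, where 394 of 813 were over all fragments. Klf2_E057 in position 2 was called higher in plus with 7 of 8 promoters, most with *Tbx3*, where its boost index was 2.21, 1.95 and 1.75 in plus and 1.19, 1.37 and 0.81 in minus. Klf2_E058 was called in 8 of 14 sets, with differences of at most 0.50. In position 1, where Klf2_E057 in minus is represented by 1 to 4 combinations per promoter, its differences ran from -0.32 to 1.28. Klf2_E046 had 1 called difference, 0.79 ± 0.17 with *Lefty1* in position 2, from 2 plus and 4 minus combinations.

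The strand difference of Klf2_E061 in position 2 changed sign with the promoter. With *Ap1m1* its boost index was 0.72, 0.72 and 0.78 in plus and 0.17, 0.15 and 0.17 in minus, a difference of 0.58 ± 0.03 (SE, limma, adjusted p = 0.0084). *Nanog* gave the same direction, 0.47 ± 0.05 (limma, adjusted p = 0.0084). Beside *Sox2* it was lower in plus, 1.67, 1.39 and 1.50, than in minus, 2.10, 1.78 and 1.96, with a difference of -0.43 ± 0.06 (limma, adjusted p = 0.013). The replicates of plus and minus do not overlap with *Ap1m1* nor with *Sox2*. *Fgf5* and *Lefty1* also gave negative values, -0.54 ± 0.24 and -0.27 ± 0.10, which did not pass. The difference between promoters passed a limma F test (adjusted p = 1.8e-05), as it did for Klf2_E057 in both positions and Klf2_E058 in position 2, 4 of 8 fragment positions against a background of 32.4%. Without replicates 1, 2 and 3 in turn 1, 2 and 1 of these were called, Klf2_E061 in position 2 each time. In position 1 the strand difference of Klf2_E061 was positive with all 8 promoters (0.12 to 0.45). The call with *Sox2* was lost without replicate 1 and without replicate 2, those with *Ap1m1* and *Nanog* without replicate 2, each at nearly the same difference.

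Pairs of the 4 fragments were measured in all 6 possible partnerships and in both orders, while no fragment was paired with itself. They give 78 ordered pair-promoter values, each the median over 1 to 4 combinations of orientations. Klf2_E058 with Klf2_E061 had boost indices from 0.47 (*Ap1m1*) to 4.89 (*Lefty1*), median 3.02, and Klf2_E057 with Klf2_E058 from 0.22 to 4.86, median 2.97, with the same promoters at both ends. Klf2_E046 with Klf2_E058 reached the highest of all, 4.48, 5.26 and 5.17 with *Lefty1*, and its lowest was 0.49, 0.94 and 0.99 with *Ap1m1*. Next to *Sox2*, *Tbx3* and *Fgf5* each ordered pair with Klf2_E058 was above each pair without it, next to the other promoters the ranges of both kinds overlapped. Klf2_E057 with Klf2_E061 ran from 0.69 (*Ap1m1*) to 4.03 (*Sox2*), median 2.24, Klf2_E046 with Klf2_E061 from 0.81 (*Ap1m1*) to 3.95 (*Lefty1*), median 1.83, and Klf2_E046 with Klf2_E057 from 1.10 (*Ap1m1*) to 4.41 (*Lefty1*), median 1.76. Where all 4 orientations of an ordered pair were measured, in 33 cases, they spanned a median of 0.70 and at most 1.96 log2 units, so that a median over fewer orientations has an error that the replicates do not show.

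To ask how 2 fragments combine, the activity of each ordered pair was set against an additive expectation, the sum of both single activities in their positions minus the baseline. By replicates, 17 of the 78 values lay above it (limma, 5% FDR, background 24.1%) and 21 below (background 11.7%). All 17 belong to pairs without Klf2_E058 and 20 of the 21 to pairs with it. Over the 38 values without Klf2_E058 the median log2 of observed over expected was 0.37, with 29 above 0, whereas the 40 values with Klf2_E058 had a median of -0.27, with 38 below 0, beside a median of 0.08 over all 20807 values of the series. Pairs of a library that hold the same fragment in the same position share 1 single activity in their expectations, so these values are not independent. The number of calls depended on single replicates. Without replicate 1, 2 and 3 in turn 8, 8 and 16 values were called above, and 1, 6 and 16 below. A multiplicative expectation, the product of both single activities over the baseline, left 2 above and put 56 below.

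Values above the additive expectation came mostly from libraries with a low baseline. With *Tbx3*, 5 of the 6 values without Klf2_E058 were called above, with *Lefty1* 5 of 6 and with *Sox2* both, against 1 of 6 with *Klf2*, 1 of 6 with *Nanog*, 2 of 6 with *Otx2*, 1 of 2 with *Fgf5* and 0 of 4 with *Ap1m1*. All pairs of the series differ in the same way, with 46.6% above in the *Tbx3* library, 44.9% with *Lefty1*, 38.3% with *Sox2* and 6.48% with *Ap1m1*. In the *Fgf5* library 21.7% were above, and its median of observed over expected, 0.57, was the highest of all libraries. The *Fgf5* baseline, which enters each of these expectations, rests on only 23 CC combinations. Values with Klf2_E058 called below were found with *Ap1m1* (5 of 5), *Nanog* (4 of 5), *Otx2* (4 of 5), *Klf2* (3 of 6), *Tbx3* (2 of 5), *Lefty1* (1 of 6) and *Sox2* (1 of 4), and not among the 4 with *Fgf5*. Observed over expected activity varied between promoters (limma F test, 5% FDR) for 7 of the 12 ordered pairs, against a background of 66.7%. Klf2_E057 followed by Klf2_E061 was not among these, and all 8 of its values were positive, at 0.13 to 0.89. They come from 2 combinations each with *Ap1m1* and *Lefty1* and from 1 with each other promoter, so 1 orientation stands against single activities over several.

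The highest ratio of observed to expected activity was that of Klf2_E046 followed by Klf2_E061 with *Tbx3*. Its boost index was 3.81, 3.59 and 3.19 in the replicates, where 2.29, 2.25 and 1.42 was expected, so that observed over expected was 1.54 ± 0.10 on the log2 scale (SE, limma, adjusted p = 0.0055). The expectation rests on a single EC combination of Klf2_E046 in position 1, and with single activities taken over both positions the value was 0.76, still called. It also kept its call in each fit without 1 replicate. The reverse order gave 0.74 ± 0.11. Klf2_E046 followed by Klf2_E057 had 0.99 ± 0.18 with the same promoter, from 1 combination, but 0.36 and no call with single activities over both positions. Klf2_E057 followed by Klf2_E046 had 3.87, 4.18 and 3.78 where 3.11, 3.30 and 2.72 was expected, a value of 0.90 ± 0.08 that kept its call in each fit without 1 replicate. It comes from 2 combinations of the pair. With *Tbx3*, the single activity of Klf2_E046 in position 2 rests on 4 EC combinations, all in minus orientation, which fits without 1 replicate do not test. Klf2_E061 followed by Klf2_E057 with *Fgf5* (0.96 ± 0.15) lost its call in each of these fits. Without replicate 2, Klf2_E057 followed by Klf2_E061 (0.85 ± 0.11, from 1 combination) and Klf2_E046 followed by Klf2_E057 lost theirs, both with *Tbx3*. The median over all pairs of the library was 0.57 with *Fgf5* and 0.29 with *Tbx3*.

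The lowest called ratio was that of Klf2_E058 followed by Klf2_E057 with *Nanog*. Its boost index was 1.39, 1.92 and 1.35 where 2.15, 2.68 and 2.19 was expected, a ratio of -0.79 ± 0.06 (SE, limma, adjusted p = 0.0055), kept without each replicate. Klf2_E061 followed by Klf2_E058 was low with *Ap1m1* (-0.53 ± 0.07) and *Nanog* (-0.51 ± 0.07), both called except without replicate 1. With *Ap1m1*, Klf2_E046 in position 2 fell short behind Klf2_E061 (-0.55 ± 0.11) and Klf2_E058 (-0.54 ± 0.14), and these calls were lost without replicate 1 and without replicate 2. Klf2_E061 followed by Klf2_E046 is the 1 value without Klf2_E058 that was called below, and it went from there to 0.74 with *Tbx3*, with a limma F test over promoters at adjusted p = 2.5e-04. The single activity of Klf2_E046 in position 2 rests on 4 EC combinations in each of these 2 libraries, which differ in their orientations.

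Single orientations gave a like division. Of 213 EE combinations with an expectation, 27 lay more than 1 propagated SD above it (background 18.1%) and 45 more than 1 below (background 7.99%), with no test. Of the 133 that hold Klf2_E058, 4 were above and 41 below, and of the other 80, 23 were above and 4 below. With a limit of 2 SD 12 remained above and 2 below. The additive expectation was closer to the observed activity than the multiplicative one for 130 of the 133 combinations with Klf2_E058. It was closer for 49 of the 80 without (61.3%), near the 64.1% over all pairs of the series. Where both fragments are above the baseline the multiplicative expectation is the higher one. Any combination below the additive expectation is then closer to it by construction, as most with Klf2_E058 are. Klf2_E057 with Klf2_E061 was the partnership for which the additive expectation was closer in a minority, 13 of 33.

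Partners from other loci gave Klf2_E058 values below the expectation too. Of its 821 ordered pair-promoter values with fragments of other loci 34.3% were called below and 8.65% above (median -0.14), and of the 40 with fragments of its own locus 50.0% and 0% (median -0.27). Pou5f1_E081, the strongest fragment with 6 promoters, had 32.7% below and 11.8% above with partners of other loci. Klf2_E046, Klf2_E057 and Klf2_E061 had 29.7%, 32.2% and 23.8% above and 10.1%, 7.46% and 10.6% below with partners of other loci. The difference between own and other loci was not tested.

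A second fragment of the locus raised activity over the stronger of both single fragments in 35 of 78 values and lowered it in 5 (limma, 5% FDR, background 53.3% and 5.95%). Without Klf2_E058 it rose in 30 of 38 and fell in none, at a median of 0.78. With Klf2_E058 it rose in 5 of 40 and fell in 5, at a median of -0.02, and 4 of these 5 gains were pairs with Klf2_E046. The largest gain was 2.20 ± 0.14 (SE) for Klf2_E046 followed by Klf2_E061 with *Tbx3*. Gains of Klf2_E057 followed by Klf2_E061 were called with 7 of 8 promoters, each from 1 or 2 combinations. The 5 losses are Klf2_E058 followed by Klf2_E057 with *Nanog*, *Tbx3* and *Lefty1*, and Klf2_E058 in position 2 behind Klf2_E057 or Klf2_E061 with *Ap1m1*. With *Nanog* the pair differed from Klf2_E058 alone by -0.57, -0.62 and -0.74 in the 3 replicates (limma, adjusted p = 0.0016). The losses with *Tbx3* and *Lefty1* were -0.31 ± 0.09 and -0.27 ± 0.07. The count of losses was 1, 2 and 5 without replicates 1, 2 and 3. Gains varied between promoters (limma F test) for 8 of 12 ordered pairs, against a background of 64.6%, and for 5 without replicate 2.

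The order within a pair was called to matter in 9 of 38 pair-promoter sets (limma, 5% FDR, background 32.2%), but in 0 without replicate 1, 0 without replicate 2 and 7 without replicate 3, and in 4 when both orders had to hold the same orientations. Pairs of Klf2_E046 and Klf2_E057 were stronger with Klf2_E057 first for all 6 promoters measured, with 4 calls, -0.75 ± 0.07 (SE) with *Tbx3*, -0.74 ± 0.14 with *Lefty1*, -0.65 ± 0.13 with *Nanog* and -0.51 ± 0.11 with *Klf2*. With shared orientations the value with *Nanog* turned to 0.19. Pairs of Klf2_E057 and Klf2_E058 were stronger with Klf2_E057 first for all 8 promoters, by 0.11 to 0.55 with 2 calls, and pairs of Klf2_E058 and Klf2_E061 differed by -0.03 to 0.15 with no call.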

How the data were processed

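Samples were 48 cDNA, 16 plasmid DNA and 9 inverse PCR libraries. The authors linked barcodes to fragments by inverse PCR reads aligned with Bowtie2 to the fragment sequences (tool and mm10 per the submitters' processing notes), normalised barcode counts to each sample's total, and deposited, for each combination and replicate, the cDNA to plasmid DNA ratio averaged over at least 5 barcodes with at least 8 plasmid counts each. Averaging over few barcodes can leave an error that recurs in all replicates. Deposited columns of baselines, boost indices and expected activities were the authors' own comparisons and were not used. Columns of other samples numbered 0.

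From the ratios of the replicates, log2 boost indices and additive expectations were recalculated from medians over combinations above 0 in all 3 replicates. Fragments were compared with controls over combinations (two-sided exact rank-sum test, 100000 permutations where values were tied, Benjamini-Hochberg, 1% FDR). All other tests were limma 3.58.1 (R 4.3.3) over the 3 replicates of a library, or over those of all libraries that hold the fragment or pair, fitted and adjusted over all fragments or pairs of the series (5% FDR), in Python 3.11.15 with pandas 2.3.3, numpy 2.4.6 and scipy 1.17.1. The calculations were tested on simulated data. Members, lists and tests were chosen with earlier results of these data known. All fragments with all promoters are given, and single pair values for the 5 highest and 5 lowest called ratios and the range of each partnership. Pairs of a fragment with itself were not among the combinations.

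Alternatives left out replicates, the *Fgf5* library or sets under 10 EC combinations, or changed the averaging, the controls, the expectation or the orientations. Position differences with plus orientations alone or with the same partners, promoter differences at 10 or more EC combinations, fits without the *Fgf5* library, and F tests of position, strand and pair values between promoters, also with a replicate block, were added after seeing the data. Replicates were transfected on separate days, per the methods, from the same plasmid libraries.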

Additional observations from a re-analysis of the deposited data

Results flagged for a closer look

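The strand difference of Klf2_E061 in position 2 had opposite signs with 2 promoters, 0.58 with *Ap1m1* and -0.43 with *Sox2* (log2 of plus over minus, both called), and its variation between promoters passed a limma F test (adjusted p = 1.8e-05).

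Klf2_E061 followed by Klf2_E046 lay above the additive expectation with *Tbx3*, at 0.74, and below it with *Ap1m1*, at -0.55 (log2 of observed over expected), with an adjusted p of 2.5e-04 in the limma F test over promoters. Both calls rest on 3 combinations of the pair. The single activity of Klf2_E046 in position 2 rests on 4 EC combinations in each library, all minus with *Tbx3* but 3 plus and 1 minus with *Ap1m1*.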

How the results depend on the processing

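Depth is unknown, and so is the size of counting error. The tests over replicates cover the spread between cultures together with the counting error of each cDNA. Errors shared by all replicates, such as those of the plasmid DNA counts, are not covered. Values of Klf2_E046 and of the *Fgf5* library rest on few combinations. All 30 calls above the controls stayed within 25 to 30 under each alternative, which tested between 25 and 31 pairs.

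Leaving out each replicate in turn gave 3 to 4 position differences higher in position 2 (5 with all) and 9 to 11 in position 1 (14 with all), 0 to 11 strand differences in favour of plus and 0 to 2 of minus, 8 to 16 pair values above and 1 to 16 below the additive expectation, 1 to 5 losses against the stronger fragment, and 0 to 7 called orders. Variation between promoters was called for 1 to 2 fragments in position, 1 to 2 fragment positions in strand, 5 to 7 ordered pairs in observed over expected activity and 5 to 9 in gain. Each such fit within a library has 1 residual degree of freedom less, and each fit over promoters 1 less per promoter. With means in place of medians over EC combinations 2 strand differences favoured minus, as with at least 10 EC combinations, where 1 position difference was higher in position 2. Plus orientations alone left 2 and 8 position differences, and the same partners and orientations 1 and 8. The multiplicative expectation left 2 above and 56 below, a limit of 2 propagated SD 12 and 2, and shared orientations 4 orders.

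Sign turns are listed where a value was called on at least 1 side, 18 in all, while 62 values called on neither side also turned under an alternative. Most of the 18 came under the multiplicative expectation, which exceeds the additive one wherever both fragments are above the baseline. Under other alternatives they were the position differences of Klf2_E061 with *Ap1m1* (0.18, plus alone) and Klf2_E046 with *Klf2* (-1.20, same partners), Klf2_E061 followed by Klf2_E046 with *Otx2* (0.23, single activities over both positions) and the order of Klf2_E046 and Klf2_E057 with *Nanog* (0.19, shared orientations). Under the multiplicative one, observed over expected turned to -0.91, -0.45, -1.33, -0.44, -1.15 and -0.32 in the *Lefty1* library for E046-E057, E046-E061, E057-E046, E057-E061, E061-E046 and E061-E057, to -0.43, -0.0051 and -0.58 with *Tbx3* for E057-E046, E057-E061 and E061-E046, to -0.67 and -0.64 with *Sox2* for E057-E061 and E061-E057, to -0.42 with *Klf2* and -0.59 with *Nanog* for E061-E046, and to -0.42 with *Otx2* for E057-E046.

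Replicate numbers are shared between libraries, but of 84 correlations between same-numbered replicates of different libraries (-0.23 to 0.82, median 0.36) 71 exceeded 0.1, against 26 of 168 between different numbers (median -0.19). Replicates of the same number thus deviated together more often, but not in every pair of libraries, and the numbers were not taken as pairs. With a replicate block the promoter tests gave 4 fragments, 13 contrasts above and 3 below, as without it. With the block, position and strand differences varied between promoters for 3 fragments and 4 fragment positions, as without it, observed over expected activity for 7 ordered pairs, as without it, and gains for 9 in place of 8. Tests within a library were made on differences within each replicate and are thereby paired.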
